A study of Mus musculus with 3 samples.

Results

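Acta2, Tagln and Rgs5 were chosen by name, as genes of mural cells, from a custom targeted single-cell RNA-seq (scRNA-seq) panel of mouse bone marrow (BM), and are 3 of the 125 panel targets that had a molecule in the 3 libraries. The libraries came from C57/B6 wildtype mice with no other allele or agent. E18.5 EC held endothelial cells (ECs) sorted from fetal marrow at E18.5, late in gestation, with CD31 given as the sorting marker in one description and CD31 with endomucin in another. E18.5 BM cells and the library of Adult BM cells held marrow of either stage from which mature haematopoietic cells had been removed with lineage antibodies on magnetic beads, and the labels give no age for the adult mice. The libraries are called fetal ECs, fetal BM and adult BM. For adult marrow the authors' general methods add further rounds of depletion, among them against leukocytes, which they do not give for fetal marrow. Whether these rounds were used for this panel is not stated. Cells without a molecule of Ptprc, a leukocyte gene, were 18.3% of the cells analysed in fetal BM and 79.0% in adult BM. Each library pooled several animals, and with 1 library in each group the cells are not replicates and libraries could not be tested against each other. Intervals are 95% intervals and cover counting error alone. Stage, library, preparation and depth cannot be told apart.

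Mural cells lie on the outer face of blood vessels. Smooth muscle cells ring arteries and arterioles and contract, whereas pericytes sit along capillaries, and in marrow a muscular coat is found on arteries while the wide sinusoids are contacted mainly by reticular stroma. Acta2 encodes α-smooth muscle actin, a filament of the contractile apparatus. Tagln encodes transgelin, a small protein that binds actin filaments. Rgs5 encodes a regulator of G protein signalling, which shortens the response of receptors that control vessel tone and is widely used as a pericyte gene. Among 28 further pericyte and smooth muscle genes listed for comparison, the panel measured 1, Notch3, the receptor through which mural cells receive Notch signals from the endothelium.

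Each gene was counted at 1 amplicon near the end of 1 transcript. In GENCODE annotation of GRCm38, the Acta2 transcript lies at chr19:34241090-34255590 on the minus strand with 9 exons, the Tagln transcript at chr9:45929619-45936058 on the minus strand with 5 exons, and the Rgs5 transcript at chr1:169655501-169695813 on the plus strand with 5 exons. Acta2 belongs to a family of closely related actins, and whether its amplicon also took reads of another actin could not be checked here. The promoters are shown because the 3 genes were found in the same cells. The RefSeq table of GRCm38.p6 held a window of 300 bases around the start of Acta2 and of Rgs5. For Acta2 the start in that table lies within the span of the transcript given above, as do the Acta2 stretches printed below. Serum response factor, a regulator of contractile genes, binds the CArG box, which was searched on both strands as CC and GG around 6 letters of which at most 1 was not A or T. Acta2 held 2 such matches and Rgs5 held 0, against 9.99% of 32817 promoters of the same length with at least 1. Both windows held TATATA, found in 5.67% of promoters, and in Acta2 it began 8 bases after the start given in the table, and these stretches show the matches in capitals on the strand of the gene.
Acta2 CArG box at chr19:34255438-34255467: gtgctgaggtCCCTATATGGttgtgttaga
Acta2 CArG box at chr19:34255388-34255417: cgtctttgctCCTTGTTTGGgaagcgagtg
Acta2 TATATA at chr19:34255348-34255377: agagcaaggggcTATATAacccttcagcgt
Rgs5 TATATA at chr1:169655459-169655488: tgagagagcttgTATATAttcctcaaaggg
The letters TGGGAA, the core bound by the Notch effector RBPJ, occurred once in the Acta2 window, where they overlap the CArG box of the window that starts at 34255388, and did not occur in the Rgs5 window. They were present in 25.6% of promoters. These are matches of letters and not sites shown to be bound.

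The libraries held 4043, 12884 and 7948 cell barcodes in this order of fetal ECs, fetal BM and adult BM, and 4038, 12844 and 7939 cells had at least 20 molecules and 5 targets. The median kept cell had 83 molecules in fetal ECs, 97 in fetal BM and 242 in adult BM. Between 38 and 113 barcodes were shared by any pair of libraries, and of these 1 cell pair carried Acta2 in both libraries and 0 carried Tagln or Rgs5 in both. Levels are given as molecules per 10000 panel molecules. Primer yield can differ between amplicons, so a level is compared between cells and libraries for 1 gene and is not a ranking of the 3 genes by transcript number.

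The 3 genes together made up 0.385% of all molecules in fetal ECs, 1.94% in fetal BM and 1.75% in adult BM. Acta2 had 253 molecules in fetal ECs, 21827 in fetal BM and 35398 in adult BM, and was seen in 2.43%, 4.15% and 7.38% of kept cells. Tagln had 190, 8292 and 26365 molecules and was seen in 2.13%, 2.98% and 9.48% of kept cells. Rgs5 had 1227, 5575 and 48352 molecules and was seen in 2.03%, 1.99% and 13.8% of kept cells. The adult library thus had the most molecules and the most positive cells of each gene, and it was also the deepest. The molecules were concentrated in few cells: in fetal BM the tenth of Acta2-positive cells with the most molecules held 77.3% of all Acta2 molecules, while 53.5% of the positive cells had 1 molecule. The correction of molecule counts also set how many cells were positive. Distribution-based error correction (DBEC) kept Rgs5 in 83 of the 915 cells of fetal ECs that carried it after recursive substitution error correction (RSEC), and in 1099 of 6832 cells of adult BM. All values are of DBEC-adjusted molecules unless stated otherwise.

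Cells were placed in gates that used none of the 3 genes. The endothelial gate asked for at least 5 molecules of Pecam1 (the gene of CD31) and Kdr (a VEGF receptor) with no Ptprc, the gene of the pan-leukocyte marker CD45. The blood gate asked for Ptprc with fewer than 5 molecules of Pecam1 and Kdr. The rest were assigned to the marker list that led them, reticular, osteoblast, chondrocyte or fibroblast-like, the last being a list of matrix genes such as Aspn and Postn. In the sorted library 73.2% of kept cells lay in the endothelial gate, 11.9% met it with Ptprc and 13.4% lay in the blood gate.

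In fetal marrow the 3 genes were highest in the fibroblast-like gate among gates with at least 20 cells. In fetal BM this gate of 1116 cells had 525 Acta2 molecules per 10000 (interval 517 to 534), 199 of Tagln (194 to 204) and 130 of Rgs5 (125 to 134), and it held 70.6%, 70.4% and 68.2% of the molecules of the 3 genes. Of its cells, 146 carried 2 or 3 of the genes and held 15277 of its 15412 Acta2 molecules. Outside those 146 cells its levels were 5.59 of Acta2, 5.09 of Tagln and 5.42 of Rgs5. The osteoblast gate of the same library had 0.932 Acta2 molecules per 10000 (0.465 to 1.67) and 2.20 of Tagln (1.44 to 3.23). Rgs5 was seen in 0 of its 285 cells, which allows a share of up to 1.05% by a floor of 3 counts and has an exact upper limit of 1.29%. The sorted library held only 20 cells in the fibroblast-like gate, but these had 78.8% of its Rgs5 molecules at 2111 per 10000 (1980 to 2248), against 9.16 (8.05 to 10.4) in its 2954 endothelial gate cells. Of the 20 cells, 10 carried 2 or 3 of the genes and held 954 of the gate's 966 Rgs5 molecules.

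In adult BM the endothelial gate had the highest level of Acta2, 386 per 10000 (380 to 392), and of Rgs5, 657 (649 to 665), and held 44.1% and 55.0% of their molecules. Tagln was at 233 (229 to 238) there and at 244 (239 to 249) in the fibroblast-like gate, and these neighbours in the order differed by little more than their counting intervals. The adult reticular gate of 2474 cells, marked by Cxcl12 and Lepr, had 1.46 Acta2 molecules per 10000 (1.24 to 1.71), 3.41 of Tagln (3.06 to 3.78) and 8.80 of Rgs5 (8.24 to 9.38). The chondrocyte gate was lower still for each gene, with 0.15 (0.095 to 0.226) of Acta2. Outside cells that carried several of the genes, Acta2 was at 2.22 and Rgs5 at 151 per 10000 in the adult endothelial gate.

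**Figure D1:**
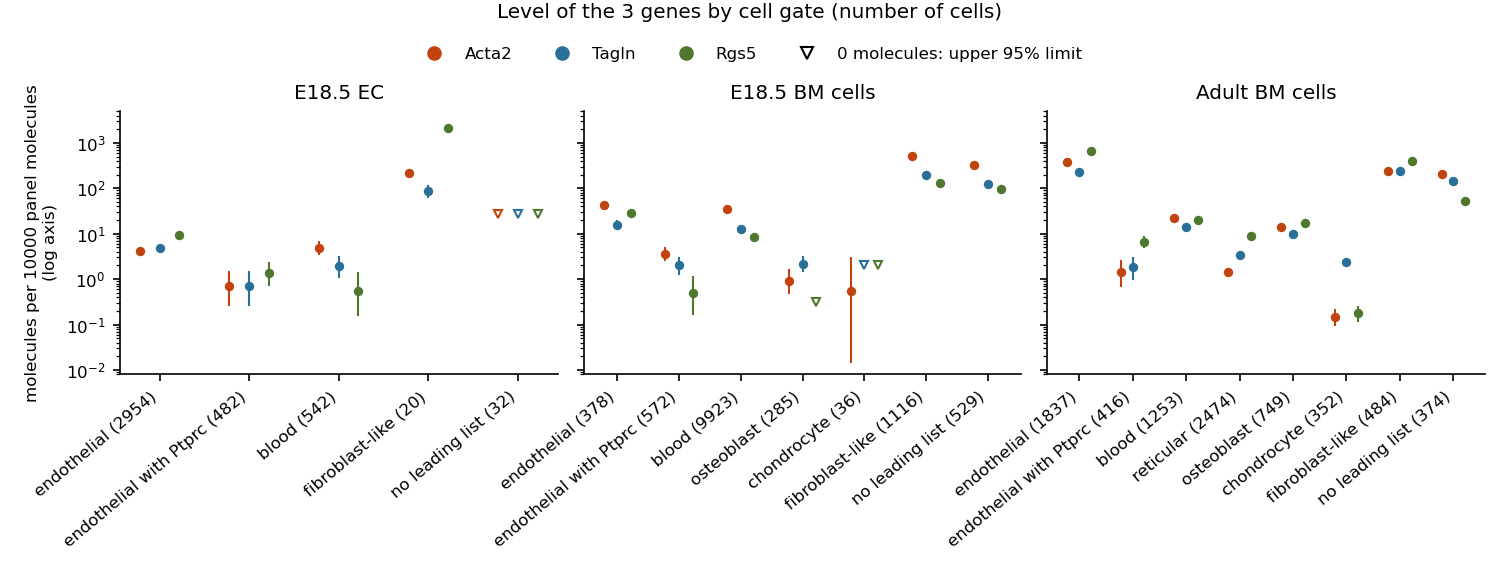
Level of Acta2, Tagln and Rgs5 (molecules per 10000 panel molecules, log axis) in each gate of at least 20 cells, one panel per library, with the number of cells in brackets. Points are pooled levels with 95% exact Poisson intervals and open triangles are upper limits where no molecule was counted. At E18.5 the fibroblast-like gate stands highest, and in adult BM the endothelial and fibroblast-like gates stand together above the reticular, osteoblast and chondrocyte gates. In fetal BM the molecules of the fibroblast-like gate lay mainly in its 146 cells with 2 or 3 of the genes.

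Overlap was counted in cells with no Ptprc molecule, which numbered 3014 in fetal ECs, 2349 in fetal BM and 6270 in adult BM. In fetal BM 108 cells carried all 3 genes, 58 carried 2 and 215 carried 1. In adult BM 213 carried all 3, 237 carried 2 and 1112 carried 1. In fetal ECs 9 carried all 3, 25 carried 2 and 120 carried 1. Among cells with any of the genes, those with 2 or 3 were therefore 43.6% in fetal BM (38.5% to 48.7%), 28.8% in adult BM (26.6% to 31.1%) and 22.1% in fetal ECs (15.8% to 29.5%). With each cell thinned to 50 molecules, the shares were 58.5% in fetal BM, 36.2% in adult BM and 21.2% in fetal ECs, with 270, 114 and 741 shallower cells left out. Fetal BM had the highest share at matched depth too. After RSEC alone the share was instead 74.3% in adult BM and 37.8% in fetal BM, so the order of these libraries depended on the correction.

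The cells with all 3 genes held most of the molecules in both marrow libraries, and 27.9% in fetal ECs. In fetal BM they held 95.4% of the molecules of the 3 genes in Ptprc = 0 cells, with a median of 181 such molecules, 62.9% of everything counted in the cell. In adult BM they held 58.9%, with a median of 240 molecules or 56.8% of the cell. By contrast, cells with a single gene had a median of 1 molecule in each library. Cells with a single gene were 9.15% of Ptprc = 0 cells in fetal BM and 17.7% in adult BM, against 3.27% and 10.1% of blood gate cells of the same libraries, at median depths of 137 and 322.5 molecules against 89 and 84. Thinned to 50 molecules, they were 4.14% and 8.04% of Ptprc = 0 cells and 1.96% and 7.31% (5.89% to 8.95%) of blood gate cells, so in adult BM the share was within the interval of the blood gate. In fetal ECs the share was 3.98% in Ptprc = 0 cells and 8.30% in the blood gate, at 75 and 96 molecules. In that library as a whole, single-gene cells were thus no more frequent than in the blood gate. What part free RNA or expression had in them was not tested.

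**Figure D2:**
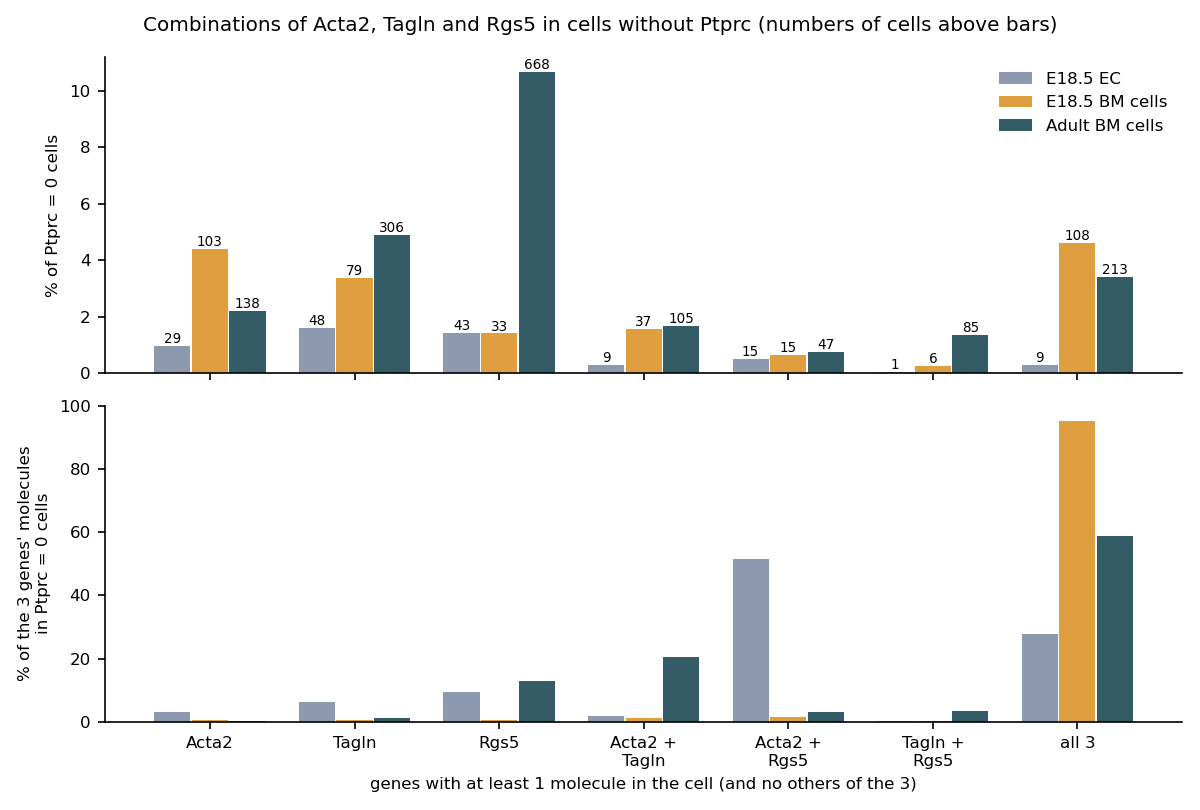
The 7 combinations of the genes in Ptprc = 0 cells of each library, as a share of those cells (upper panel, with the number of cells above each bar) and as a share of the genes' molecules (lower panel). Rgs5 alone was the most frequent combination in adult BM (668 cells), while the molecules sat mainly in cells with all 3 genes in fetal BM and adult BM, and in cells with Acta2 and Rgs5 in fetal ECs.

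The share of a pair depends on which gene is taken first, because the genes differ in their number of positive cells. In fetal BM the same 123 cells with Acta2 and Rgs5 are counted over 162 Rgs5 cells and over 263 Acta2 cells. Among Ptprc = 0 cells of fetal BM with Rgs5, 75.9% also had Acta2 (68.6% to 82.3%) and 70.4% had Tagln (62.7% to 77.3%), while 46.8% of Acta2 cells had Rgs5 (40.6% to 53.0%). In adult BM 25.7% of Rgs5 cells had Acta2 (23.0% to 28.5%) and 51.7% of Acta2 cells had Rgs5 (47.2% to 56.1%). Cells without Acta2 had Rgs5 in 1.87% of cases in fetal BM and in 13.1% in adult BM. At matched depth Acta2 was in 84.4% of fetal (76.2% to 90.6%) and 33.4% of adult Rgs5 cells (29.4% to 37.6%), so adult Rgs5 was the more often seen without Acta2. Tagln was in 55.1% of fetal (48.9% to 61.2%) and 63.2% of adult Acta2 cells (58.8% to 67.4%), and at matched depth in 58.3% (50.5% to 65.9%) and 74.4% (69.2% to 79.2%). As a description over cells of 1 library, which share depth and panel, Pearson r of log2 levels between Acta2 and Tagln was 0.81 over 2349 cells of fetal BM and 0.80 over 6270 of adult BM, and between Acta2 and Rgs5 it was 0.77 and 0.47. In thinned cells the latter values were 0.72 and 0.45.

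Overlap was also counted in cells with at least 10 molecules of the 3 genes together, a choice that itself favours cells with several of them. There were 23 in fetal ECs, 135 in fetal BM and 505 in adult BM, and they held 84.1%, 98.2% and 98.0% of the genes' molecules in Ptprc = 0 cells. In fetal BM 107 of the 135 had all 3 genes, or 79.3% (71.4% to 85.8%), and 3 had Rgs5 alone. In adult BM 203 of the 505 had all 3, or 40.2% (35.9% to 44.6%), 149 had Rgs5 alone, 73 had Acta2 with Tagln and no Rgs5, and 29 had Tagln alone. Acta2 alone was found in 1 of the 135 fetal and 0 of the 505 adult cells. In fetal ECs the largest set was Acta2 with Rgs5 and no Tagln, 9 of 23 cells, and each of the 9 also carried Notch3.

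The 149 adult cells with at least 10 Rgs5 molecules and neither contractile gene were of different kinds. In 75 of them there were at least 10 molecules of Prg4, which encodes lubricin, the lubricating proteoglycan of joint surfaces. These had a median depth of 2459 molecules, of which Prg4 was 85.2% and Rgs5 2.01% (medians over cells), and 3 of the 75 carried Notch3. The other 74 had a median depth of 303 molecules with 28.9% of them Rgs5, and 59 carried Notch3, or 79.7%, against 97.5% of the 203 adult cells with at least 10 molecules and all 3 genes. In the 5918 adult Ptprc = 0 cells outside these sets, 45.7% carried Notch3. Of the 74, 43 lay in the endothelial gate. Pooled Prg4 was 8632 per 10000 in the 75 cells, 10.8 in the 74 and 26.4 in the 203, so adult Rgs5 was abundant both in cells dominated by lubricin and in cells with Notch3. The division by Prg4 was chosen after the values were seen.

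Notch3 was compared between cells by the number of the genes seen. In fetal BM it was present in 13.2% of Ptprc = 0 cells with none of the genes (11.7% to 14.7%), 33.0% with 1, 65.5% with 2 and 99.1% with 3 (94.9% to 100%). Its level there went from 12.0 per 10000 molecules other than the 3 genes (10.9 to 13.1) with none to 1299 (1244 to 1355) with 3. In adult BM it was present in 44.2% of cells with none, 46.9% with 1, 68.8% with 2 and 95.3% with 3, and its level went from 21.3 (20.8 to 21.7) to 631 (613 to 649). In fetal ECs it was present in 14 of 2860 cells with none, 11 of 120 with 1, 11 of 25 with 2 and 5 of 9 with 3, and its level was 659 (576 to 751) with 2 and 573 (469 to 693) with 3. Thinned to 50 molecules, the shares with none and with 3 were 5.21% and 85.0% in fetal BM and 20.1% and 78.8% in adult BM, so those with 3 were also higher at matched depth.

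Other targets were compared between Ptprc = 0 cells with 2 or 3 of the genes and those with none, leaving the 3 genes out of the totals. Of the 1 mural gene listed and measured, 1 was more than 2-fold higher in each library: Notch3, by 468 times in fetal ECs (328 to 688), 66.1 times in fetal BM (59.9 to 73.0) and 13.4 times in adult BM (13.0 to 13.9). As background, 25.6% of 78 targets were past 2-fold higher and 26.9% past 2-fold lower in fetal ECs, 15.5% and 37.1% of 97 in fetal BM, and 36.2% and 22.9% of 105 in adult BM. The companions differed between libraries. In fetal BM Notch3 was followed by Gja4, the gap junction gene connexin 37 of arteries, at 8.14 times (6.89 to 9.61), Cdk14 at 5.68 (4.07 to 7.84), the Notch target Nrarp at 4.20 (3.49 to 5.03) and Dkk3 at 3.63 (3.28 to 4.02). In adult BM the matrix gene Postn was ahead of Notch3 at 22.0 times (21 to 23.1), followed after Notch3 by the arterial gene Sema3g at 11.2 (10.8 to 11.7), the matrix gene Aspn at 11.2 (10.7 to 11.7) and Gja4 at 10.8 (10.3 to 11.3). In fetal ECs, with 34 cells, Aspn was at 41.0 times (32.5 to 51.7), Mgp at 21.7 (19.7 to 23.8), Postn at 7.90 (6.32 to 9.78) and S100a4 at 4.72 (3.38 to 6.45).

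Cells with 1 gene alone were compared with cells with none in the same way. In fetal BM Notch3 was among the 3 leading targets for Acta2 alone, at 3.88 times (3.14 to 4.76) beside Car3 and Fzd2, and for Rgs5 alone, at 7.24 (5.52 to 9.36) beside Col22a1 and Dkk3. Col22a1 was in 15.2% of these 33 cells with Rgs5 alone. Tagln alone was led by Cxcl12 at 3.14 (2.76 to 3.57), Cilp and Bglap2. In fetal ECs Rgs5 alone was led by Notch3 at 40.6 (23.7 to 69.0), then Aspn and Postn, Acta2 alone by Mmp13 (145 molecules in 6.90% of its cells), Aspn and Mgp, and Tagln alone by Mgp, Cxcl12 and Fbln5. Of the 43 cells of fetal ECs with Rgs5 alone, 16.3% had Notch3, 9.30% had Aspn and 9.30% had Postn. In adult BM Acta2 alone was led by Mmp9, Aspn and Wnt9a. Adult Tagln alone was led by Atp6v0d2, of which 30 molecules lay in 1.63% of these cells, then by Vwf, the von Willebrand factor gene of endothelium, at 6.23 (5.77 to 6.72), and Apln. Adult Rgs5 alone was led by Prg4 at 18.7 (18.6 to 18.9), then Atp6v0d2 and Cdh13. Notch3 was in none of the 3 adult sets of leading targets.

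The targets whose levels were most like the mean of the 3 genes across single Ptprc = 0 cells, by the mean over the 3 libraries of Pearson r of log2 levels, were Notch3 (0.54), Aspn (0.34), Postn (0.23), Gja4 (0.21) and Mgp (0.16). Notch3 had r of 0.60, 0.66 and 0.35 in fetal ECs, fetal BM and adult BM. For Aspn and Postn r was lower in fetal BM, 0.18 and 0.09, than in fetal ECs, 0.43 and 0.34. In thinned cells Aspn and Postn had r of 0.38 and 0.33 in fetal ECs and 0.079 and 0.0076 in fetal BM. In adult BM their thinned values were 0.24 and 0.17. For Notch3 the thinned values were 0.66, 0.62 and 0.31 in fetal ECs, fetal BM and adult BM. These are descriptions over cells that share a library and its depth.

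Some cells carried all 3 genes together with Ptprc. In fetal BM these were 32 of 140 cells with all 3 genes, with a median of 2 Ptprc molecules and at most 10, against a median of 5 in all Ptprc-positive cells of that library. They had a median of 74 molecules of the 3 genes, against 181 in triple-positive cells without Ptprc, at median depths of 319.5 and 340 molecules. The blood gate of that library held 31 of them, which had 91.6% of its molecules of the 3 genes. Outside cells with 2 or 3 of the genes, its Acta2 level was 1.92 per 10000, against 34.4 over all its cells. In adult BM 7 of 220 triple-positive cells had Ptprc, with a median of 6 molecules of the 3 genes. No doublet caller was run, and the part of doublets or free RNA in these cells was not tested. Allowing 1 Ptprc molecule moved the share with 2 or 3 of the genes from 43.6% to 42.1% in fetal BM.

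The fetal BM and adult BM libraries differed in the makeup of triple-positive cells. In the 108 fetal cells of fetal BM Acta2 held 62.1% of the molecules of the 3 genes (61.5% to 62.7%), Tagln 23.2% (22.7% to 23.7%) and Rgs5 14.7% (14.3% to 15.1%). In the 213 adult cells Acta2 held 36.7% (36.3% to 37.0%), Tagln 20.8% (20.5% to 21.1%) and Rgs5 42.5% (42.2% to 42.9%). Single cells showed the same shift. Acta2 had the most molecules of the 3 in 82 of 108 fetal cells and in 93 of 213 adult cells, and Rgs5 in 25 and 111. The median cell had 62.1% Acta2 in the fetal library, with quartiles of 46.1% and 68.7%, and 33.3% in the adult library, with quartiles of 16.7% and 55.0%. Acta2 exceeded Tagln in 105 of 108 fetal and 171 of 213 adult cells. After RSEC alone the Acta2 share was 59.5% against 35.0% and the Rgs5 share 15.8% against 43.1% in the same cells. Because these are shares within a cell, other targets of the library do not enter them. The other E18.5 library went the other way. In the 9 triple-positive cells of fetal ECs, Acta2 held 16.7% (13.3% to 20.5%) and Rgs5 70.7% (66.2% to 74.9%). The marrow sets were also unlike in gate, as 1 of the 108 fetal cells and 121 of the 213 adult cells lay in the endothelial gate.

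**Figure D3:**
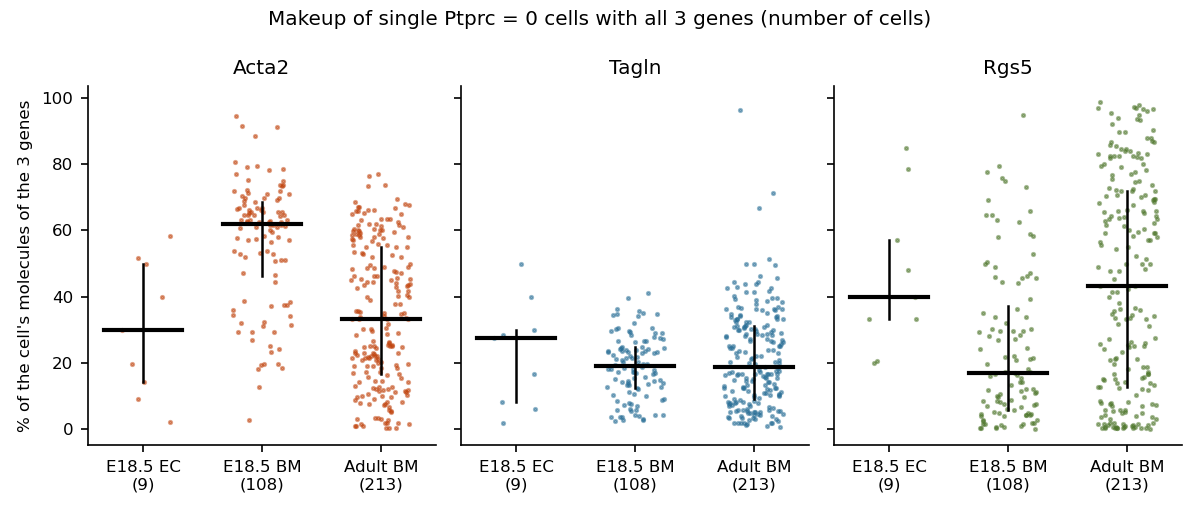
Share of each gene among a cell's molecules of Acta2, Tagln and Rgs5, for the Ptprc = 0 cells with all 3 genes (9, 108 and 213 cells). Each point is a cell, the thick bar the median and the thin line the range between quartiles. Acta2 has a median of 62.1% in fetal BM and 33.3% in adult BM, Rgs5 16.9% and 43.2%, and the cells of the libraries overlap in every panel.

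Over all Ptprc = 0 cells, Acta2 was at 334 per 10000 (329 to 339) in fetal BM and 58.0 (57.4 to 58.6) in adult BM, which is 5.75 times as high (5.65 to 5.86). Tagln was at 127 (124 to 130) and 43.3 (42.8 to 43.8), or 2.93 times as high (2.86 to 3.01). Rgs5 was at 86.2 (83.7 to 88.8) and 79.6 (78.9 to 80.3), or 1.08 times as high (1.05 to 1.12). After RSEC alone the ratios were 2.77, 1.52 and 0.521, with Rgs5 lower in fetal BM, and for raw molecules 2.64, 1.54 and 0.529. For both, the Ptprc = 0 cells were chosen again from those counts. Outside the endothelial gate they were 10.4, 4.59 and 2.39, and with each cell weighted equally 1.59, 0.773 and 0.453. Read against the other targets these ratios are smaller, because the median of 111 targets was itself 2.71 (1.44 on the log2 scale). Of these targets 52.3% were more than 2-fold higher in fetal BM and 25.2% more than 2-fold higher in adult BM, and Acta2 ranked 80, Tagln 58 and Rgs5 42 from the lowest ratio. Relative to the median, Acta2 was 2.12, Tagln 1.08 and Rgs5 0.399 times as high in the fetal library. A change of the total moves all targets alike and leaves these relative values as they are. With each cell weighted equally, they were 1.29, 0.628 and 0.368. Rgs5 was below the median target both ways, while Acta2 was above it, and Tagln changed side.

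Both the frequency of positive cells and the content of each differed. Acta2 was present in 11.2% of fetal and 8.02% of adult Ptprc = 0 cells, Tagln in 9.79% and 11.3%, and Rgs5 in 6.90% and 16.2%. Thinned to 50 molecules the shares were 8.08% and 5.02% for Acta2, 5.92% and 5.99% for Tagln, and 5.24% and 8.61% for Rgs5. A cell with all 3 genes held on average 158.5 molecules of Acta2 in fetal BM and 110 in adult BM, 59.2 and 62.6 of Tagln, and 37.5 and 128 of Rgs5. The Rgs5 count was thus larger in adult triple-positive cells by more than the difference in their median depth of 340 and 465 molecules. The Tagln count was also larger in adult cells, but by less than that difference. Such cells made up 4.60% of fetal (3.79% to 5.52%) and 3.4% of adult Ptprc = 0 cells (2.96% to 3.88%).

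Single presence was counted in all cells with at least 5 molecules of Pecam1 and Kdr, with or without Ptprc, which numbered 3436 in fetal ECs, 950 in fetal BM and 2253 in adult BM. A single gene was seen in 138 of these cells in fetal ECs, or 4.02% (3.38% to 4.73%), in 44 or 4.63% (3.39% to 6.17%) in fetal BM, and in 355 or 15.8% (14.3% to 17.3%) in adult BM. Blood gate cells had a single gene in 8.30%, 3.27% and 10.1%. Median depths were 81, 118 and 129 molecules in the endothelial cells and 96, 89 and 84 in the blood gate. Thinned to 50 molecules, the endothelial shares were 2.69%, 2.60% and 11.2%, and those of the blood gate 4.26%, 1.96% and 7.31%. In fetal BM the thinned intervals of 1.64% to 3.91% and 1.67% to 2.29% overlapped, as did those of fetal ECs, 2.11% to 3.37% and 2.62% to 6.51%. For RSEC alone the endothelial cells were chosen again from RSEC counts. The shares with a single gene were then 25.9% in fetal ECs, 35.4% in fetal BM and 20.6% in adult BM, so adult BM went from the highest to the lowest.

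The genes differed within the fetal libraries. In fetal ECs Acta2 alone was in 0.960% of endothelial cells and 5.35% of blood gate cells, so it was less frequent in the former. Tagln alone was in 1.57% and 2.21%, a share no higher than in the blood gate. It reached 12 molecules in 54 endothelial cells, 2 of which had at least 10, and 2 molecules in 12 blood gate cells. These maxima come from unlike numbers of cells and do not set the gates apart. Rgs5 alone was in 1.48% (1.11% to 1.95%) against 0.738% (0.201% to 1.88%), and at matched depth in 1.11% (0.747% to 1.57%) against 0 of 469 blood gate cells, which allows a share of up to 0.640% by the floor of 3 counts. The exact upper limit of the latter is 0.783%, so the intervals overlap. In fetal BM Rgs5 alone was in 0.421% of endothelial and 0.474% of blood gate cells, a share no higher than in the blood gate. Acta2 alone was in 2.11% (1.29% to 3.23%) against 1.93% (1.67% to 2.23%). Tagln alone was in 2.11% (1.29% to 3.23%) against 0.857% (0.685% to 1.06%), and at matched depth in 1.18% (0.568% to 2.16%) against 0.566% (0.413% to 0.756%), with intervals that overlap. Most of these fetal BM endothelial cells carried Ptprc. In the 378 without it, Rgs5 alone was in 0.794% (0.164% to 2.30%), Acta2 alone in 1.59% (0.585% to 3.42%) and Tagln alone in 2.65% (1.28% to 4.81%).

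The adult values differed between the genes. Rgs5 alone was seen in 212 of 2253 endothelial cells, or 9.41% (8.24% to 10.7%), against 3.83% (2.84% to 5.05%) of blood gate cells, and at matched depth in 6.5% (5.50% to 7.62%) against 2.72% (1.87% to 3.82%). Tagln alone was seen in 92, or 4.08% (3.3% to 4.98%), against 1.52% (0.915% to 2.36%), and at matched depth in 2.95% (2.28% to 3.75%) against 0.765% (0.351% to 1.45%). Acta2 alone, in 51 cells or 2.26% (1.69% to 2.97%), was below the blood gate at 4.79% (3.67% to 6.12%). What part free RNA had in either share was not tested. Acta2 also had the lowest counts per cell. Rgs5 alone came with 1 molecule in 124 of the 212 cells and with at least 10 in 44, reaching 501. Of these 44 cells, 25 and the maximum were among cells with under 10% of their molecules from Pecam1 and Kdr, and in the others the maximum was 75. Tagln alone came with 1 molecule in 47 of the 92 and with at least 10 in 24, reaching 126, while Acta2 alone never exceeded 8. In fetal ECs 27 of 33 cells with Acta2 alone, 39 of 54 with Tagln alone and 37 of 51 with Rgs5 alone had 1 molecule. When a gene was counted as seen only with at least 2 molecules, the share of endothelial cells with a single gene was 1.11% in fetal ECs, 1.16% in fetal BM and 8.17% in adult BM.

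Rgs5 alone and Tagln alone were spread differently over the adult endothelial cells. Cells were called arterial, a name for this rule alone, when at least 2 of the arterial genes Gja4, Sema3g and Hey1 were seen. Rgs5 alone was in 129 of 839 such cells, or 15.4% (13% to 18%), and in 83 of the other 1414, or 5.87% (4.70% to 7.22%). Tagln alone was in 22 of the arterial cells, or 2.62% (1.65% to 3.94%), and in 70 of the others, or 4.95% (3.88% to 6.21%), and 23 of the 24 cells with at least 10 Tagln molecules were among the others. At matched depth the shares in arterial and other cells were 11.6% and 3.36% for Rgs5 and 1.81% and 3.66% for Tagln.

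**Figure D4:**
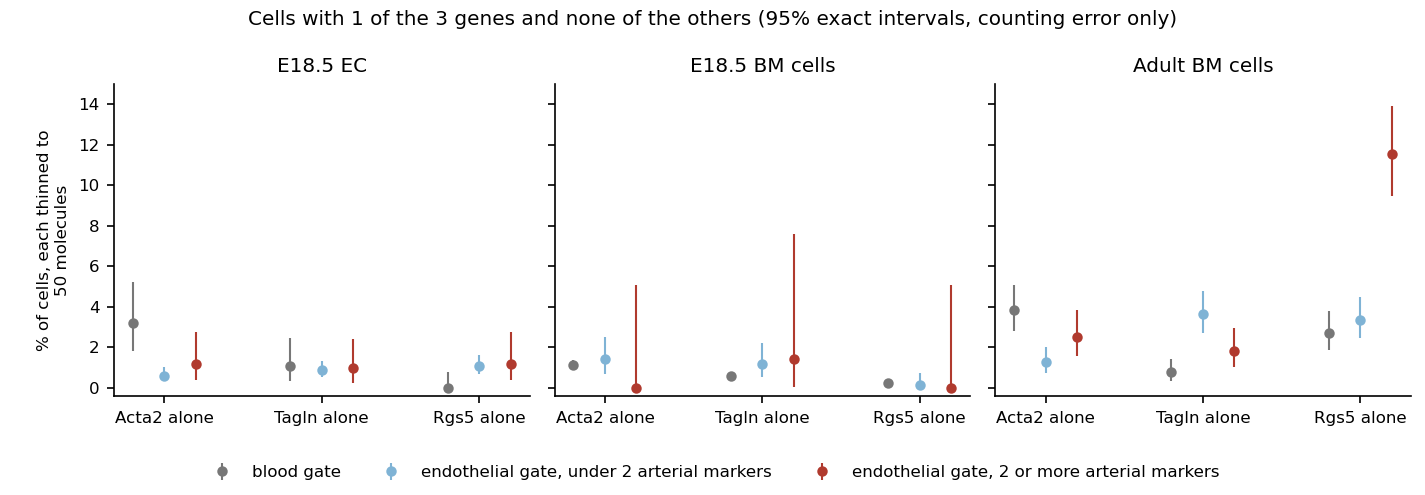
Share of cells with 1 of the genes and neither of the others, each cell thinned to 50 molecules, in the blood gate and in endothelial cells with 2 or more or with fewer of the arterial genes. Points are shares with 95% exact intervals of counting error. In adult BM Rgs5 alone reaches 11.6% in arterial cells, and Tagln alone is highest, at 3.66%, in the other endothelial cells.

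The companions of these adult cells differed too, as levels per 10000 molecules other than the 3 genes. Vwf was at 615 (575 to 656) in endothelial cells with Tagln alone, 47.6 (42.1 to 53.6) with Rgs5 alone and 88.2 (84.8 to 91.7) with none of the genes. Sema3g was at 207 (185 to 232), 400 (384 to 417) and 228 (223 to 234) in the same sets, and Gja4 at 90.4 (75.6 to 107), 285 (271 to 299) and 177 (172 to 182). Stab1, a scavenger receptor of sinusoids, was at 215 (192 to 240), 76.0 (69.0 to 83.5) and 234 (228 to 240). Cells with Acta2 alone, whose share was no higher than in the blood gate, had Sema3g at 631 (574 to 693), Gja4 at 315 (275 to 360), Vwf at 90.2 (69.3 to 115) and Stab1 at 193 (162 to 229). Vwf was thus highest with Tagln alone, Stab1 lowest with Rgs5 alone, and the arterial genes were higher with Acta2 alone and with Rgs5 alone than with none. Notch3, a gene of mural cells, was in 8.70% of the endothelial cells with Tagln alone, 23.1% with Rgs5 alone and 4.22% with none. What part RNA of mural cells had in the Rgs5 cells was not tested.

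On the same scale, Pecam1, which the gate and the sort used, was in fetal ECs at 1947 (1815 to 2085) with Acta2 alone, 2213 (2108 to 2322) with Tagln alone, 2341 (2231 to 2455) with Rgs5 alone and 2254 (2238 to 2270) with none. Vwf was higher with Acta2 alone, at 407 (349 to 473), and Tagln alone, at 378 (334.8 to 424), than with none, at 180 (175 to 184). Stab1 was lower in all 3 sets, between 155 and 276 against 433 with none. Notch3 was in 11.8% of the 51 fetal endothelial cells with Rgs5 alone and in 1 cell each of those with Acta2 alone and Tagln alone.

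Many adult endothelial cells with all 3 genes had little Pecam1 and Kdr for their depth. There were 122 of them, 5.42% of the 2253 (4.52% to 6.43%), with a median of 3.46% of their molecules from Pecam1 and Kdr and 48.0% from the 3 genes, at a median depth of 564 molecules. Endothelial cells with none of the genes had a median of 17.9% from Pecam1 and Kdr. Of the 122, 118 were in the arterial set, and endothelial cells with 2 or 3 of the genes had Notch3 at 546 (527 to 565) per 10000 molecules other than the 3 genes against 5.53 (4.70 to 6.46) in cells with none, with Sema3g at 617 (597 to 638) on that scale. When Pecam1 and Kdr had to make up at least 10% of a cell's molecules, a rule chosen after the data were seen, 12 of 1578 cells had all 3 genes, or 0.760% (0.394% to 1.32%), and 268 or 17.0% (15.2% to 18.9%) had a single gene. Molecules of the 3 genes count in that total, so the rule itself removes cells rich in them. In the 675 cells under 10%, 110 had all 3. Endothelial and mural transcripts were thus counted in the same barcodes in adult marrow, and whether a barcode held 1 cell or several was not tested. In fetal ECs 6 and in fetal BM 2 endothelial cells had all 3 genes.

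**Figure D5:**
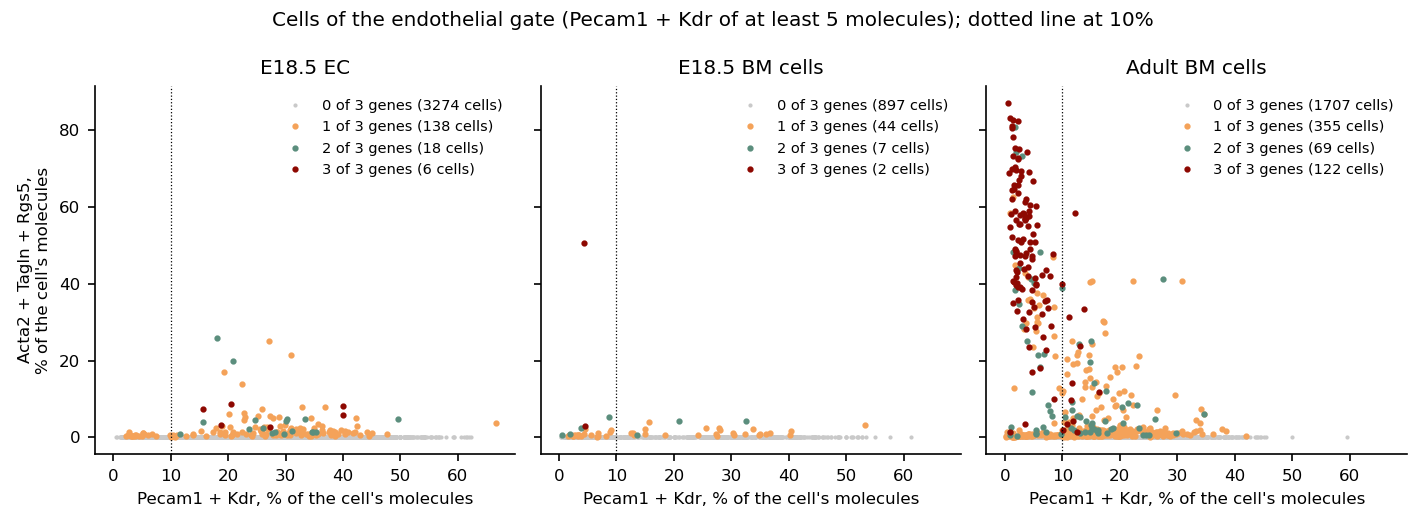
Cells with at least 5 molecules of Pecam1 and Kdr, plotted by the share of their molecules from Pecam1 and Kdr (horizontal axis, %) and from Acta2, Tagln and Rgs5 (vertical axis, %), coloured by how many of the 3 genes were seen. In adult BM the 122 cells with all 3 genes lie mostly left of the dotted line at 10%, and cells with a single gene lie on both sides of it.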

How the data were processed

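Transcripts were tagged with unique molecular identifiers in microwells and amplified with a custom primer panel. The authors deposited counts of molecules and reads for each barcode and amplicon, which they made with the BD Targeted Rhapsody Analysis Pipeline 1.8 per the file headers. The authors' processing notes name mm10, and the files list an amplicon only where it had a read. DBEC-adjusted molecules were summed per barcode and gene. A minimum of 20 molecules and 5 targets per cell was set. Doublets were not called, and the sources used here do not state that they were removed. Levels have exact Poisson intervals, shares exact Clopper-Pearson intervals, ratios conditional binomial intervals, and correlations used log2(molecules per 10000 + 10). Thinning drew 50 molecules per cell without replacement (random seed 1). Python 3.11.15, numpy 2.4.6, pandas 2.3.3, scipy 1.17.1 and matplotlib 3.10.9 were used, and the functions were tested on simulated data. Other named targets were the measured mural list, the 5 highest ratios per library (3 for each single-gene set, with 20 molecules or more) and the 5 most alike. The members and lists were chosen with earlier results of these data known. RSEC-adjusted and raw molecules, other gates, scalings and thinning were tried as alternatives.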

Additional observations from a re-analysis of the deposited data

Results flagged for a closer look

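For 3 targets the difference between Ptprc = 0 cells with 2 or 3 of the mural genes and those with none went opposite ways in the 2 marrow libraries, with both counting intervals past 2-fold. The difference between the libraries was not tested, since each stage had 1 library. Pecam1 was at 0.176 times the level of cells with none in fetal BM and at 2.74 times in adult BM. Prg4 was at 0.0745 times in fetal BM and 5.95 times in adult BM. The adult rise was not seen in cells rich in all 3 genes. Pooled Prg4 had a level of 26.4 in the 203 adult cells with at least 10 molecules of the genes and all 3 seen. It was 546 in the 5918 adult Ptprc = 0 cells outside that set and outside those with Rgs5 alone at that threshold. Of the 203, 2 had at least 10 Prg4 molecules. At the same threshold, 13 of 73 cells with only Acta2 and Tagln did. So did 9 of 34 with only Tagln and Rgs5, and 0 of 17 with only Acta2 and Rgs5. S100a4, a calcium-binding gene found in several stromal and immune cells, was at 0.243 times in fetal BM and 10.5 times in adult BM.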

How the results depend on the processing

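Of 69 values recomputed under an alternative, 24 kept within the counting interval, 39 moved and 6 changed direction. For RSEC-adjusted and raw molecules the cells and their gates were also chosen again from those counts, so the sets of cells differ from the main ones. The levels of fetal BM over adult BM in Ptprc = 0 cells, 5.75 for Acta2, 2.93 for Tagln and 1.08 for Rgs5, were 2.77, 1.52 and 0.521 after RSEC alone and 2.64, 1.54 and 0.529 with raw molecules. With up to 1 Ptprc molecule they were 4.95, 2.54 and 0.951, without the 5 most abundant targets in the total 2.75, 1.40 and 0.517, and with cells weighted equally 1.59, 0.773 and 0.453. Outside the endothelial gate they were 10.4, 4.59 and 2.39, and without the 3 genes in the total, a scaling chosen after seeing the data, 5.98, 3.05 and 1.13. Acta2 was thus higher in fetal BM in each of these settings, while Rgs5 changed direction in 5 and Tagln in 1. A change of the total moves all targets alike, and the one without the 5 most abundant targets, which accounts for 1 of the 5, also took the median target from 2.71 to 1.30.

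The share with 2 or 3 of the genes among Ptprc = 0 cells with any was 11.2% in fetal ECs, 37.8% in fetal BM and 74.3% in adult BM, both after RSEC alone and with raw molecules. Thinning gave 58.5% in fetal BM and 36.2% in adult BM. Counting a gene as seen only with at least 2 molecules, chosen after seeing the data, gave 33.9%, 61.2% and 34.0%.

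The share of endothelial cells with a single gene was 25.9%, 35.4% and 20.6% after RSEC alone and 26.0%, 35.3% and 21.6% with raw molecules, so of the 3 kinds of molecule count only the DBEC-adjusted one gave adult BM the highest share. Thinning gave 2.69%, 2.60% and 11.2%, and at least 2 molecules 1.11%, 1.16% and 8.17%. Without Ptprc the adult share was 17.5%.

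No paired analysis was possible because each group had 1 library. For the same reason no value has an error between animals, and depth limits what can be said of cells with 1 molecule. Genes at 1 molecule per cell cannot be separated from free RNA, and the Acta2 amplicon was not checked against other actins.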
